A study of Mus musculus with 6 samples.

Results

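Amino acid transporters are the membrane carriers that move amino acids, and in some cases neurotransmitters or taurine, across the plasma membrane and the membranes of lysosomes and vesicles. The genes were taken from a count table of engineered mouse muscle by their symbols: all members of the solute carrier families SLC1, SLC6, SLC7, SLC36, SLC38 and SLC43 whose name ends in a number, without the creatine transporter Slc6a8, and with the heavy chains Slc3a1 and Slc3a2 added. This gave 58 of the 24421 genes in the table. A filter on low counts left 41 of these 58 and 15792 of the 24421 for testing. Of the 17 members that were not tested, 2 (Slc7a12 and Slc38a11) had no count in any library, and the highest count among the others was 17 in 1 library.

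The constructs were made from C2C12, a line of mouse myoblasts that fuse into myotubes in low serum, embedded in a type I collagen gel held by artificial tendons. Constructs given tumour necrosis factor alpha (TNF-alpha) at 100 ng/mL for 72 h were compared with constructs given only the vehicle, phosphate-buffered saline, with 3 constructs in each group. C2C12 is 1 cell line and the labels name no other cell type, genotype or agent. The labels number the constructs as biological replicates without naming separate cell batches, so the p-values cover only how far these 6 constructs vary, which may be technical.

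Amino acid carriers work as symporters, exchangers or facilitators. SLC1, SLC6, SLC36 and SLC38 carriers mostly use sodium or proton gradients to concentrate amino acids. Many SLC7 proteins are light chains that reach the membrane only when bound to a heavy chain of the SLC3 family, and then exchange one amino acid for another. Muscle holds a large share of the body's free glutamine and taurine and takes up leucine and arginine, which feed protein synthesis and nitric oxide production.

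Libraries held 81713008 to 93533748 counts. Levels are CPM, the counts of a gene scaled to a common library total, after scaling of the libraries with TMM, and changes were tested with edgeR's quasi-likelihood test, with p-values adjusted by Benjamini and Hochberg over all 15792 genes and a threshold of 0.05. All 10 muscle markers were present, and their summed level was 8866 to 10077 CPM in TNF-alpha libraries and 13970 to 15935 CPM in vehicle libraries, with 8 fallen, 1 risen (Myog) and Acta1 not past the test. Among 6 macrophage markers 3 rose (Cd68, Csf1r and Lyz2), with a sum of 21.0 to 22.8 CPM in TNF-alpha libraries and 5.39 to 5.67 CPM in vehicle libraries, while Ptprc and Adgre1 had at most 4 counts in any library. Among 8 fibroblast markers 2 rose and 6 fell, with a sum of 10778 to 11862 CPM in TNF-alpha libraries and 9443 to 9995 CPM in vehicle libraries. The 8 neuron and glia markers summed to 45.2 to 48.4 CPM in TNF-alpha libraries and 56.0 to 88.4 CPM in vehicle libraries, and Rbfox3 and Snap25 had at most 2 counts in a library. The 5 endothelial markers summed to at most 1.59 CPM in TNF-alpha libraries and 3.63 CPM in vehicle libraries, and the 5 adipocyte markers to at most 0.609 CPM in TNF-alpha libraries and 0.320 CPM in vehicle libraries. The part of these marker differences in the results below was not tested, and in whole constructs fewer cells of a kind and less RNA per cell cannot be told apart.

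The transporters moved in both directions. Of the 41 tested members, 14 rose and 11 fell, leaving 16 that did not pass. The 25 calls are 60.98% of the tested members, where 55.5% of all tested genes were called, 27.6% risen and 27.9% fallen, so the share of calls lay near that over all genes. Calls of at least 2-fold were made for 15 of the 41 members (36.6%), 7 risen and 8 fallen. Over all tested genes 17.9% reached this, 8.47% risen and 9.46% fallen. Of the 15 members, only 10 averaged at least 1 CPM in a group, 5 risen and 5 fallen, and the rest had few counts. In 28 of 41 members the groups did not overlap, against 64.5% of all tested genes. The median log2 fold change was 0.07 over the members and 0.00 over all genes. A mean of 1 CPM in a group was reached by 32 members, and 20 of those were called. The share called over all genes at that level was not counted.

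**Figure D1:**
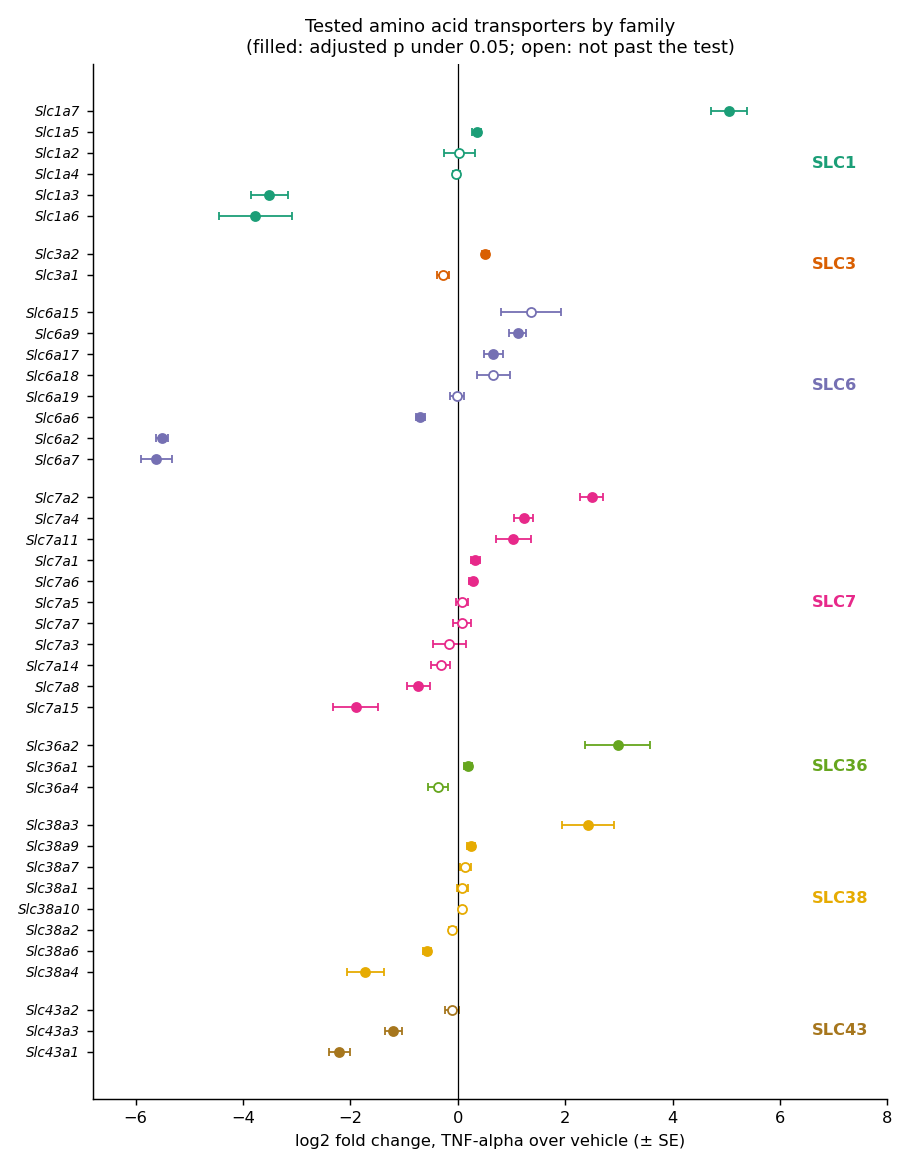
Log2 fold change of each of the 41 tested members, TNF-alpha over vehicle, on the horizontal axis, grouped by family, with bars of 1 SE. Filled points passed the test and open points did not. Filled points lie on both sides of 0 in SLC1, SLC6, SLC7 and SLC38, only above 0 in SLC3 and SLC36 and only below 0 in SLC43, and the values run from -5.62 for Slc6a7 to 5.05 for Slc1a7.

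The families differed in how their summed transcript level stood in the groups. The 15 SLC7 genes summed to 1607, 1757 and 1986 CPM in the TNF-alpha libraries and to 590, 662 and 568 CPM in the vehicle libraries. That sum was 2.94 times as high with TNF-alpha, but without Slc7a2 it was 472 ± 35.2 CPM in TNF-alpha libraries and 374 ± 29.97 CPM in vehicle libraries (SD, n = 3 each), 1.26 times as high. The 2 SLC3 heavy chains summed to 345 ± 16.9 CPM with TNF-alpha and 245 ± 5.83 CPM with vehicle. The 16 SLC6 genes summed to 586 ± 8.80 CPM with TNF-alpha and 907 ± 70.98 CPM with vehicle. The 7 SLC1 genes summed to 115 ± 6.05 CPM with TNF-alpha and 196 ± 10.8 CPM with vehicle. The groups of libraries did not overlap in any of these 4 family sums. Without Slc6a6 the SLC6 sum was 117 ± 18.1 CPM with TNF-alpha and 144 ± 6.29 CPM with vehicle. The median log2 fold change of the 8 tested SLC6 members was 0.32, but its sign turned with a stricter filter on low counts, where fewer members were tested. Of the SLC1 sum, Slc1a3 made up 8.06 ± 3.63 CPM with TNF-alpha and 92.1 ± 15.4 CPM with vehicle.

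The other families summed to closer values. The 11 SLC38 genes summed to 858 ± 11.2 CPM in TNF-alpha libraries and 877 ± 14.4 CPM in vehicle libraries, with overlapping libraries. The 4 SLC36 genes summed to 35.7 ± 1.59 CPM with TNF-alpha and 33.1 ± 1.97 CPM with vehicle, again with overlap. The 3 SLC43 genes summed to 96.1 ± 9.84 CPM with TNF-alpha and 123 ± 14.4 CPM with vehicle, and here the groups did not overlap. Over all 58 members the sum was 3819 ± 209 CPM in TNF-alpha libraries and 2987 ± 117 CPM in vehicle libraries. Without Slc7a2 it was 2507 ± 56.6 CPM in TNF-alpha libraries and 2754 ± 77.0 CPM in vehicle libraries, so the higher total of the TNF-alpha libraries rested on that gene.

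**Figure D2:**
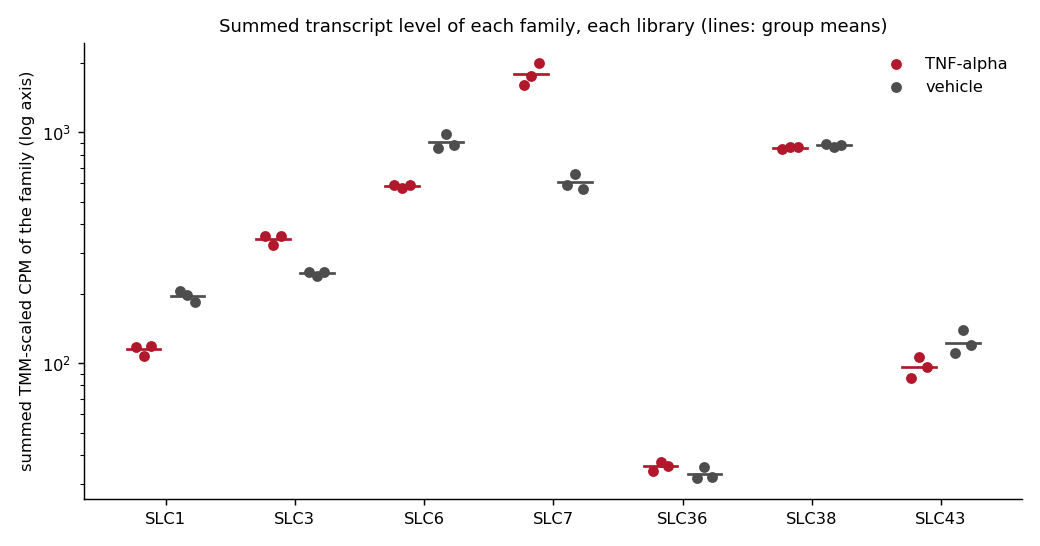
Summed TMM-scaled CPM of each family (log axis) in each TNF-alpha library (red) and vehicle library (grey), with lines at the group means. SLC7 sums lie at 1607 to 1986 CPM with TNF-alpha against 568 to 662 CPM with vehicle, SLC6 and SLC1 sums are lower with TNF-alpha, and SLC38 and SLC36 sums overlap.

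Slc7a2 encodes CAT-2, a carrier of arginine, lysine and ornithine whose splice forms differ in affinity for arginine. It lies on GRCm38 chromosome 8, 40862396 to 40922308, plus strand (ENSMUSG00000031596.15). Its level was 1163, 1299 and 1475 CPM in the TNF-alpha libraries, against 247, 287 and 165 CPM in the vehicle libraries. Every TNF-alpha library was above every vehicle library, and the gene rose 5.63-fold (log2 fold change 2.49 ± 0.21 SE, adjusted p = 7.64e-05). By CPM it stood at place 54 of all genes in the TNF-alpha libraries and at place 772 in the vehicle libraries. Its counts carried decimals in all 6 libraries, and the splice forms cannot be separated in a table of whole genes.

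The other cationic carriers changed less. Slc7a1, the widely expressed carrier CAT-1 (chromosome 5), had 192, 211 and 235 CPM with TNF-alpha and 165, 163 and 181 CPM with vehicle, and rose 1.26-fold (0.33 ± 0.08, adjusted p = 0.00969). Slc7a4, a related protein of less settled substrate, had 3.02, 3.60 and 4.32 CPM with TNF-alpha and 1.66, 1.41 and 1.59 CPM with vehicle, and rose 2.35-fold (1.23 ± 0.18, adjusted p = 4.22e-04). An exon stretch of 554 bases of Slc7a4 (13.3% of its exon length) lies opposite exons of P2rx6, which fell (log2 fold change -0.68 ± 0.09, adjusted p = 2.22e-04). Slc7a3 and Slc7a14 were not past the test (-0.16 ± 0.31 and -0.31 ± 0.18, adjusted p = 0.697 and 0.16).

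Per kilobase of exon, Slc7a2 was 7.65, 7.75 and 7.92 times as abundant as Slc7a1 in the TNF-alpha libraries. In the vehicle libraries that ratio was 1.89, 2.22 and 1.15. Of the summed CPM per kilobase of the 5 cationic carriers, Slc7a2 made up 88.0% ± 0.17 with TNF-alpha and 61.6% ± 8.05 with vehicle (SD, n = 3 each), and Slc7a1 made up 11.3% ± 0.17 with TNF-alpha and 36.7% ± 7.88 with vehicle. The ratio was thus alike in the 3 TNF-alpha constructs and varied between the vehicle constructs, where replicate 3 had the lowest Slc7a2 level.

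Enzymes that make or use arginine were picked with their values in view, and stood at these levels in the same libraries. Nos2, the inducible nitric oxide synthase, had 863, 655 and 783 CPM with TNF-alpha and 0.132, 0.416 and 1.18 CPM with vehicle (adjusted p = 4.48e-05), so its vehicle level varied several-fold and was highest in replicate 3. Ass1, which rebuilds arginine from citrulline together with Asl, rose by 2.37 in log2 units (adjusted p = 1.55e-05), and Arg2, the mitochondrial arginase, by 1.52 (adjusted p = 0.00127). Arg1, the cytosolic arginase, had 0.268, 0.233 and 0.203 CPM with TNF-alpha and 0.252, 0.214 and 0.739 CPM with vehicle, and was not past the test (adjusted p = 0.22). Vehicle replicate 3 alone stood above the TNF-alpha libraries. Gatm, which takes the amidino group of arginine for creatine, had 47.2 ± 3.00 CPM with TNF-alpha and 131 ± 11.98 CPM with vehicle, and fell (-1.47 ± 0.08, adjusted p = 2.19e-06).

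The heavy chain Slc3a2, also known as CD98 or 4F2hc, pairs with most SLC7 light chains (chromosome 19, 8706882 to 8723369, minus strand). It had 349, 321 and 351 CPM in TNF-alpha libraries and 243, 232 and 242 CPM in vehicle libraries, without overlap, and rose 1.42-fold (0.51 ± 0.06, adjusted p = 1.84e-04). Slc3a1, the heavy chain rBAT of kidney and intestine, had 4.93 ± 0.19 CPM with TNF-alpha and 5.97 ± 0.44 CPM with vehicle, and was not past the test (-0.28 ± 0.11, adjusted p = 0.0641), though it passed as fallen with upper-quartile scaling (-0.31, adjusted p = 0.0425). Of Slc3a1, 601 exon bases (26.5%) lie opposite exons of Prepl, which was not past the test either (0.02 ± 0.08, adjusted p = 0.818). Per kilobase, Slc3a2 was 44.5 ± 1.57 times as abundant as Slc3a1 with TNF-alpha and 25.9 ± 2.12 times with vehicle.

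Among the light chains, the cystine carrier rose and the leucine carrier did not pass the test. Slc7a11, or xCT, exchanges cystine for glutamate and so supplies the cysteine of glutathione (chromosome 3, 49892526 to 50443614, minus strand). It had 78.4, 71.4 and 73.7 CPM with TNF-alpha and 19.4, 46.4 and 43.6 CPM with vehicle. The groups did not overlap, and vehicle replicate 1 lay far below the other vehicle libraries. The gene rose 2.04-fold (1.03 ± 0.32, adjusted p = 0.0387). Without vehicle replicate 1 the log2 fold change was 0.72 (adjusted p = 2.06e-04), and without any 1 TNF-alpha library or without vehicle replicate 3 the adjusted p was 0.0540 to 0.0898, past the threshold no longer.

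Slc7a5, or LAT1, carries leucine and other large neutral amino acids in exchange for glutamine. It had 111, 116 and 143 CPM with TNF-alpha and 107, 114 and 129 CPM with vehicle, and was not past the test (0.09 ± 0.11, adjusted p = 0.536). Slc7a6, the y+LAT2 chain that exchanges cationic for neutral amino acids, rose 1.21-fold (0.28 ± 0.07, adjusted p = 0.00852). Its close relative Slc7a7, y+LAT1, was not past the test (0.07 ± 0.16, adjusted p = 0.728). Of Slc7a7, 232 exon bases (7.00%) lie opposite exons of Oxa1l, which had 44.1 ± 1.84 CPM with TNF-alpha and 50.7 ± 2.19 CPM with vehicle and fell (-0.20 ± 0.06, adjusted p = 0.0212). Slc7a8, the LAT2 chain, fell to 0.997 ± 0.20 CPM with TNF-alpha, against 1.66 ± 0.13 CPM with vehicle (-0.73 ± 0.21, adjusted p = 0.0152), and leaving out TNF-alpha replicate 3 ended this call (adjusted p = 0.0543). Slc7a15 fell by 1.90 ± 0.41 in log2 units (adjusted p = 0.00423), with 12 to 16 counts per TNF-alpha library, against 32 to 71 counts per vehicle library. Slc7a9, Slc7a10, Slc7a12 and Slc7a13 had at most 3.28 counts in a library.

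Set against the heavy chain per kilobase of exon, the light chains were fewer per Slc3a2 with TNF-alpha. The summed CPM per kilobase of Slc7a5 to Slc7a13 was 0.493, 0.535 and 0.563 of that of Slc3a2 in TNF-alpha libraries and 0.593, 0.684 and 0.702 of it in vehicle libraries. The groups did not overlap. Without division by length the ratios did overlap, as vehicle replicate 1 lay among the TNF-alpha libraries. The light-chain sum itself, Slc7a15 included and not divided by length, was higher with TNF-alpha. It was 254 ± 15.0 CPM with TNF-alpha and 201 ± 23.2 CPM with vehicle. Slc7a5 alone stood at 0.345 ± 0.042 of Slc3a2 with TNF-alpha and 0.464 ± 0.044 with vehicle, while Slc7a11 stood at 0.0555 ± 0.0020 with TNF-alpha and 0.0388 ± 0.0163 with vehicle. As a share of the light-chain sum, Slc7a11 made up 11.5%, 10.5% and 9.45% in TNF-alpha libraries and 3.41%, 7.40% and 6.5% in vehicle libraries. Slc7a5 was the largest light chain in every library, at 64.9% ± 3.75 with TNF-alpha and 70.2% ± 2.02 with vehicle, and Slc7a6 made up 21.5% ± 2.61 with TNF-alpha and 20.3% ± 2.72 with vehicle, a difference within the spread that turned round without division by length (19.8% with TNF-alpha and 20.9% with vehicle). These levels are of transcripts and say nothing of how many protein pairs formed.

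**Figure D3:**
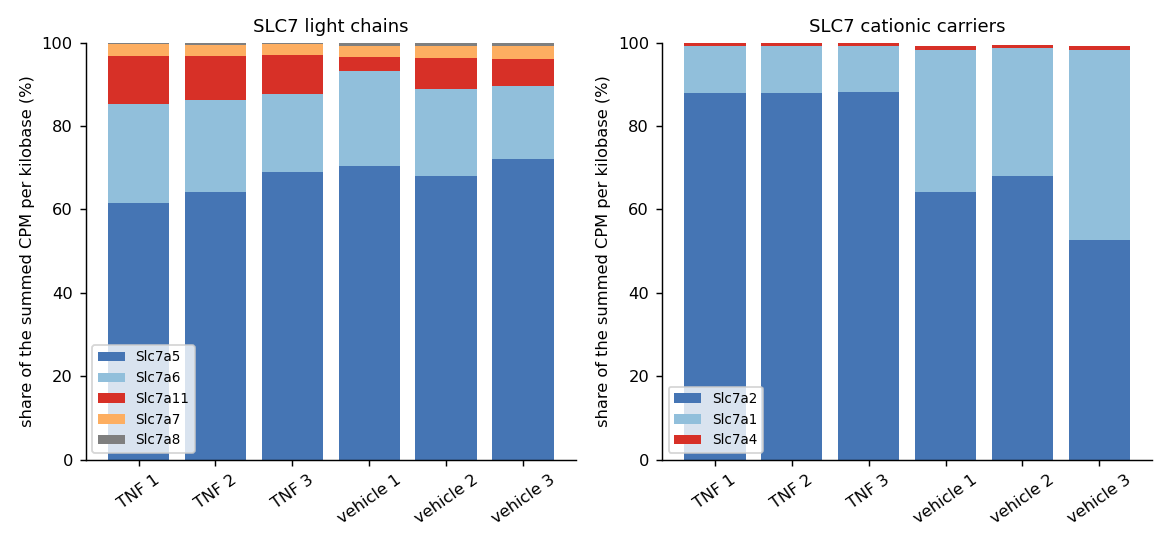
Share of the summed CPM per kilobase of exon (vertical axis, percent) in each TNF-alpha and vehicle library, for the SLC7 light chains (left) and the SLC7 cationic carriers (right). Bars reach 100% with members of under 1% that are not drawn. Slc7a11 takes 9.45% to 11.5% of the light chains with TNF-alpha against 3.41% to 7.40% with vehicle, and Slc7a2 takes about 88.0% of the cationic carriers in each TNF-alpha library.

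Promoter windows of 300 bases, from 250 before to 50 after the transcription start, were held for 41 of the 58 members in the RefSeq table of build GRCm38.p6. They were searched on both strands for the core of the C/EBP-ATF response element (TGATGNAA), bound by ATF4 dimers when amino acids are short, for the core of the antioxidant response element (TGACNNNGC), bound by NRF2, and for the kappaB motif. The C/EBP-ATF core lay in a window of 3 of the 41 members, and in 4.51% of all 27025 genes with a window. Slc7a11 held it in 2 places, and of the others Slc1a4 and Slc7a7 were not past the test. The antioxidant core lay in 8 of 41 members (14.0% of all genes), namely Slc6a9, Slc7a1, Slc7a6 and Slc36a1, which rose, Slc43a1, which fell, Slc38a2, which was not past the test, and Slc6a11 and Slc6a13, which were not tested. The kappaB motif lay in 7 of 41 members (5.14% of all genes), of which 0 rose, Slc1a6 fell, Slc7a7, Slc36a4 and Slc43a2 were not past the test, and Slc6a12, Slc6a13 and Slc7a10 were not tested. A match is a description of these letters and not a bound site. No window was held for Slc7a2, Slc7a4, Slc7a5, Slc1a5, Slc6a2, Slc6a6, Slc6a7 or Slc43a3, among others, so these were not searched.

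The windows of the 3 genes with a C/EBP-ATF core and of Slc3a2, which held none of the motifs, are shown 5′ to 3′ on the gene's strand, all minus, with the matches to the C/EBP-ATF core in capitals. They lie at chr3:50443564-50443863 (Slc7a11), chr11:20332664-20332963 (Slc1a4), chr14:54417895-54418194 (Slc7a7, 1 of its 5 listed starts) and chr19:8713848-8714147 (Slc3a2). In Slc7a11 the matches begin 66 and 47 bases before the start.
Slc7a11: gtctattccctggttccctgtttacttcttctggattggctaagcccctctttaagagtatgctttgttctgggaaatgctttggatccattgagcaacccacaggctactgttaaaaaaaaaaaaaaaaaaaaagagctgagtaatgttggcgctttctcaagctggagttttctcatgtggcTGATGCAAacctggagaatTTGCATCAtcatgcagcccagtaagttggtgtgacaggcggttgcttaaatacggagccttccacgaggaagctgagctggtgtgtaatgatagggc
Slc1a4: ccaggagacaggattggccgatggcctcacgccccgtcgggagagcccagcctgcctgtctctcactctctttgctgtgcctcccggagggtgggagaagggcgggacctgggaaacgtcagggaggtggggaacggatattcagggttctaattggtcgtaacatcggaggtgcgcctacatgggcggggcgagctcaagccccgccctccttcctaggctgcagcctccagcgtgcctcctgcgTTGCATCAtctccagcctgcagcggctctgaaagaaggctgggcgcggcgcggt
Slc7a7: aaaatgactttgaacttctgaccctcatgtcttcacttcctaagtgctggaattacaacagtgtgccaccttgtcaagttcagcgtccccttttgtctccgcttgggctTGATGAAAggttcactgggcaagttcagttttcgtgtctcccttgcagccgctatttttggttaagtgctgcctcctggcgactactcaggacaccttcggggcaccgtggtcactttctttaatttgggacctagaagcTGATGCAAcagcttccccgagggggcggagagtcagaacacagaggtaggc
Slc3a2: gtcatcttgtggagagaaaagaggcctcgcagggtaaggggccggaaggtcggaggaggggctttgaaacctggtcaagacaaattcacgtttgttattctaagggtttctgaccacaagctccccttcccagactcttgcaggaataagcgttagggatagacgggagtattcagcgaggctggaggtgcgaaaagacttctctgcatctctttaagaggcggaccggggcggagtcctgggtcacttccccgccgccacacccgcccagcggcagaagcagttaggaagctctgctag

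Cystine taken up by Slc7a11 feeds glutathione synthesis, which the factor NRF2 is known to induce. Of the 28 tested genes of glutathione synthesis and NRF2 targets, 23 rose and 0 fell, leaving 5 that did not pass. This list, like the other gene lists here, was chosen with earlier results of these data known, so its counts are only a description. Over all tested genes 27.6% rose and 27.9% fell, and the difference was not tested. The median log2 fold change of the list was 0.83 (0.00 over all genes). The exporters Abcc1 and Abcc4, which carry glutathione conjugates among other substrates, were named by the rule for smallest adjusted p. Abcc1 rose to 750 ± 41.1 CPM with TNF-alpha, against 119 ± 1.30 CPM with vehicle (2.66 ± 0.07, adjusted p = 4.27e-08), and Abcc4 rose by 3.22 ± 0.10 (adjusted p = 1.60e-07). The subunits of glutamate-cysteine ligase, Gclc and Gclm, which were chosen after their values were seen, rose by 0.82 and 1.85 in log2 units (adjusted p = 3.18e-04 and 1.09e-05).

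For the amino acid response, the counts stand beside 27.6% risen and 27.9% fallen over all genes, and the difference was not tested. Of 31 tested genes around the kinase GCN2 and the factor ATF4, 16 rose and 4 fell, leaving 11 that did not pass (median 0.23). Cebpb, a partner of ATF4, rose to 134 ± 4.0 CPM with TNF-alpha, against 53.7 ± 8.32 CPM with vehicle (1.31 ± 0.10, adjusted p = 1.74e-05). The phosphatase subunit gene Ppp1r15a rose by 0.81 ± 0.06 (adjusted p = 1.59e-05), and Psat1, an enzyme of serine synthesis, fell by 0.65 ± 0.14 in log2 units (adjusted p = 0.00601). Atf4 and Asns were also picked with their values in view. Atf4 rose by 0.74 (adjusted p = 1.37e-04), while Asns, asparagine synthetase and a usual ATF4 target, was not past the test (0.16, adjusted p = 0.282).

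The SLC1 family holds the carriers of glutamate and aspartate and the neutral exchangers, and the glutamate carriers made up its large changes. Slc1a3, the glutamate and aspartate transporter GLAST or EAAT1 (chromosome 15, 8634124 to 8710764, minus strand), had 12.2, 6.27 and 5.67 CPM in TNF-alpha libraries and 106, 94.2 and 75.8 CPM in vehicle libraries. All TNF-alpha libraries lay far below the vehicle libraries, and the gene fell by 3.51 ± 0.34 in log2 units (adjusted p = 3.81e-04), so that vehicle was 11.4-fold higher. Slc1a7, the carrier EAAT5 known from the retina (chromosome 4), had 1.61, 2.03 and 2.42 CPM with TNF-alpha, or 150 to 203 counts, and 0.0480, 0.0427 and 0.0870 CPM with vehicle, or 4 to 8.12 counts. It rose by 5.05 ± 0.33 in log2 units (adjusted p = 5.62e-06). Slc1a6, the carrier EAAT4 of the cerebellum, had 2, 0 and 2 counts with TNF-alpha and 13, 27 and 21 counts with vehicle, and fell (adjusted p = 0.00145). Slc1a2, the main glutamate carrier of astrocytes, was not past the test at 30.1 to 38 counts per library (0.03 ± 0.29, adjusted p = 0.938), and Slc1a1 had at most 6 counts.

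Together the 5 glutamate and aspartate carriers summed to 14.2, 8.76 and 8.61 CPM with TNF-alpha and to 107, 94.8 and 76.5 CPM with vehicle. The neutral exchangers stood apart from this, at 104 ± 5.72 CPM with TNF-alpha and 103 ± 4.66 CPM with vehicle. Slc1a4, or ASCT1, a carrier of alanine, serine and cysteine, had 87.6, 85.1 and 93.96 CPM with TNF-alpha and 86.6, 90.4 and 95.6 CPM with vehicle (-0.03 ± 0.06, adjusted p = 0.696). Slc1a5, the glutamine carrier ASCT2, had 15.6, 14.0 and 16.4 CPM with TNF-alpha and 11.7, 12.3 and 12.01 CPM with vehicle. These groups did not overlap, and Slc1a5 rose 1.28-fold (0.35 ± 0.09, adjusted p = 0.00877).

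The SLC6 family held the steepest falls. Slc6a7, a proline transporter known from brain synapses (chromosome 18), had 0.214, 0.408 and 0.191 CPM with TNF-alpha, or 16 to 35 counts, and 10.7, 13.1 and 16.2 CPM with vehicle, or 889 to 1491 counts. It fell by 5.62 ± 0.29 in log2 units (adjusted p = 2.55e-06). Slc6a2, the norepinephrine transporter of sympathetic nerves (chromosome 8, 92960079 to 93001667, plus strand), had 1.82, 1.32 and 1.55 CPM with TNF-alpha and 74.0, 73.0 and 67.0 CPM with vehicle. Each vehicle library was above every TNF-alpha library, and the gene fell by 5.51 ± 0.12 (adjusted p = 3.77e-08), so that vehicle was 45.5-fold higher. The counts of Slc6a2 carried decimals in all 6 libraries. The other monoamine carriers, Slc6a3 and Slc6a4, had at most 17 counts and were not tested.

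Some markers fell as steeply; the markers given here were picked with their values in view. In the fibroblast list, Pi16 had 0.438 ± 0.11 CPM with TNF-alpha and 17.9 ± 2.46 CPM with vehicle (-5.36 ± 0.19, adjusted p = 2.96e-07) and Dpt had 0.540 ± 0.10 CPM with TNF-alpha and 25.7 ± 0.56 CPM with vehicle (-5.56 ± 0.13, adjusted p = 3.77e-08). Dcn, a proteoglycan gene of the same list, rose by 1.57 ± 0.11 (adjusted p = 6.09e-06). Among neuron and glia markers, Tubb3 fell by 1.29 ± 0.19 in log2 units (adjusted p = 0.00106) and Syn1 rose by 0.62 ± 0.18 (adjusted p = 0.0187). Their part in the falls of Slc6a2, Slc6a7 and Slc1a3 was not tested.

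Slc6a6, the taurine transporter, was the most abundant member per length in vehicle libraries (chromosome 6, 91684053 to 91759066, plus strand). It had 493, 460 and 455 CPM with TNF-alpha and 714, 841 and 733 CPM with vehicle, without overlap. It fell by 0.70 ± 0.08 in log2 units (adjusted p = 1.38e-04), and vehicle was 1.62-fold higher. Csad, the decarboxylase of taurine synthesis, picked once its values were known, had a log2 fold change of -0.88 (adjusted p = 1.78e-05), and Cdo1, which supplies its substrate, was not past the test (0.29, adjusted p = 0.228).

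Other SLC6 members rose or did not pass. Slc6a9, the glycine transporter GlyT1 (chromosome 4), had 72.6, 81.8 and 103 CPM with TNF-alpha and 35.6, 36.7 and 46.5 CPM with vehicle, and rose 2.17-fold (1.12 ± 0.16, adjusted p = 7.86e-04). Exons of Ccdc24 lie opposite 1429 of its exon bases (27.8%). Ccdc24 also rose, to 4.196 ± 0.21 CPM with TNF-alpha, against 2.48 ± 0.46 CPM with vehicle (0.75 ± 0.16, adjusted p = 0.00428), and strand use in the counting is not given in the sources used here. Slc6a17, a carrier of neutral amino acids into vesicles, rose 1.58-fold (0.66 ± 0.17, adjusted p = 0.0124). Slc6a19, the main neutral carrier of intestine and kidney, was not past the test at 4.39 ± 0.12 CPM with TNF-alpha and 4.46 ± 0.51 CPM with vehicle (adjusted p = 0.901), nor were Slc6a15 (1.36 ± 0.56, adjusted p = 0.0657) and Slc6a18 (0.66 ± 0.31, adjusted p = 0.0988), both under 1 CPM. For Slc6a15, without vehicle replicate 1, the log2 fold change was 2.28 (adjusted p = 0.00729), and for Slc6a18, without TNF-alpha replicate 1, it was 0.86 (adjusted p = 0.0470).

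Further SLC6 members had few counts in these constructs. Slc6a13, a carrier of GABA and taurine in liver and kidney, had 0 counts in each TNF-alpha library and 14, 8 and 10 counts in the vehicle libraries. Slc6a11 and Slc6a12 had at most 13 counts in a library, and Slc6a5, a glycine carrier, and Slc6a14 at most 10. None of these passed the filter on low counts, so none was tested.

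**Figure D4:**
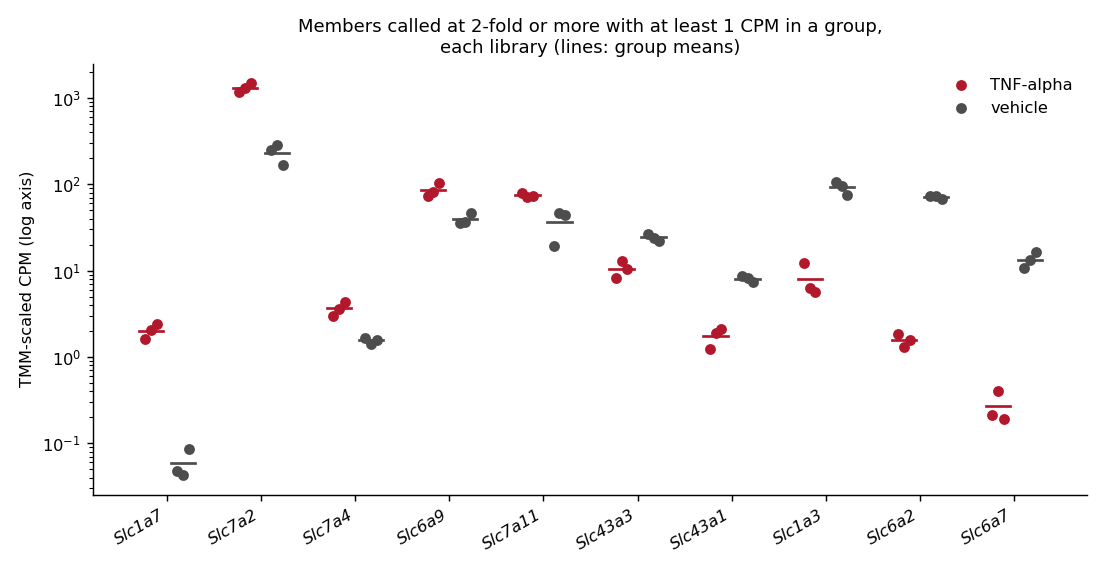
TMM-scaled CPM (log axis) in each TNF-alpha library (red) and vehicle library (grey) for the 10 called members that changed 2-fold or more and averaged 1 CPM or more in either group, with lines at the group means. The groups do not overlap in any of the 10, which run from Slc1a7, near 0.05 CPM with vehicle, to Slc6a7, with under 0.5 CPM in each TNF-alpha library.

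In the SLC38 family, the carriers of glutamine and small neutral amino acids with the highest levels per length were not past the test. Slc38a2, or SNAT2, the sodium-coupled carrier known to be induced by amino acid shortage, had 484, 510 and 498 CPM with TNF-alpha and 550, 500 and 552 CPM with vehicle. The groups overlapped, and it was not past the test (-0.10 ± 0.07, adjusted p = 0.224). Slc38a1, its close relative SNAT1, was not past the test (0.09 ± 0.10, adjusted p = 0.492). Slc38a10 had 181, 187 and 196 CPM with TNF-alpha and 168, 187 and 180 CPM with vehicle (0.08 ± 0.06, adjusted p = 0.328). Slc38a7, a lysosomal glutamine exporter, had 86.4, 70.3 and 73.0 CPM with TNF-alpha and 73.6, 74.3 and 60.5 CPM with vehicle (0.14 ± 0.10, adjusted p = 0.287).

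Of the 8 tested SLC38 members, 2 rose and 2 fell. These calls are 50% of the family, near the 55.5% called over all tested genes. Slc38a9, the lysosomal arginine sensor of the growth kinase complex mTORC1, had 22.5, 21.6 and 22.3 CPM with TNF-alpha and 18.4, 20.2 and 17.6 CPM with vehicle, and rose 1.18-fold (0.24 ± 0.08, adjusted p = 0.0256). That call was lost without TNF-alpha replicates 1 or 3 or vehicle replicates 1 or 3 (adjusted p = 0.0521 to 0.0858). Slc38a6 fell to 12.4 ± 0.32 CPM with TNF-alpha, against 18.4 ± 0.71 CPM with vehicle (-0.58 ± 0.08, adjusted p = 2.73e-04). Slc38a4, a carrier prominent in liver, fell with 12 to 14 counts per TNF-alpha library and 32 to 53 counts per vehicle library (adjusted p = 0.00254). Slc38a3, a glutamine carrier of system N, rose with 19 to 34 counts per TNF-alpha library and 2 to 8 counts per vehicle library (adjusted p = 0.00274). Slc38a5, Slc38a8 and Slc38a11 had at most 4 counts in a library.

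The counts for genes of amino acid sensing lay near the shares over all genes (27.6% risen and 27.9% fallen). Of 34 tested genes of the mTORC1 sensing machinery, 10 rose and 12 fell, leaving 12 that did not pass (median 0.01). Sesn1, a sestrin that restrains mTORC1, fell to 30.9 ± 1.53 CPM with TNF-alpha, against 64.4 ± 2.65 CPM with vehicle (-1.06 ± 0.06, adjusted p = 3.40e-06). Rps6kb1, the S6 kinase, fell by 0.45 ± 0.05 (adjusted p = 1.54e-04), and Eif4ebp1, a translation repressor, rose by 0.92 ± 0.07 (adjusted p = 1.09e-05). Of 41 tested genes of amino acid breakdown and interconversion, 12 rose and 17 fell, leaving 12 that did not pass (median -0.14). Gatm and Gamt, the enzymes of creatine synthesis, fell by 1.47 ± 0.08 and 1.32 ± 0.08 in log2 units (adjusted p = 2.19e-06 and 3.38e-06), and Odc1, the first enzyme of polyamine synthesis, rose by 1.27 ± 0.08 (adjusted p = 5.78e-06).

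The proton-coupled SLC36 carriers were near the threshold or scarce. Slc36a1, a lysosomal and intestinal carrier of small neutral amino acids, had 29.9 ± 0.089 CPM with TNF-alpha and 26.1 ± 2.1 CPM with vehicle, and rose 1.14-fold (0.19 ± 0.07, adjusted p = 0.0496). Under 10 of 14 alternatives, each library but vehicle replicate 2 left out among them, that call was lost. Slc36a2 rose with 21 to 72 counts per TNF-alpha library and 3 to 8 counts per vehicle library (2.98 ± 0.61, adjusted p = 0.00301). Without TNF-alpha replicate 2, which had the 72 counts, its log2 fold change was 2.31 (adjusted p = 0.00909). Slc36a4, a carrier of tryptophan and proline, was not past the test (-0.37 ± 0.18, adjusted p = 0.114), with adjusted p = 0.0231 without TNF-alpha replicate 2, and Slc36a3 had at most 4 counts.

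In the SLC43 family of sodium-independent facilitators no member rose. Slc43a1, or LAT3, a carrier of leucine and other large neutral amino acids (chromosome 2, 84838850 to 84863594, plus strand), had 1.24, 1.90 and 2.12 CPM with TNF-alpha and 8.67, 8.26 and 7.34 CPM with vehicle. It fell by 2.21 ± 0.20 in log2 units (adjusted p = 2.94e-05), and vehicle was 4.61-fold higher. Slc43a3, which lies near it on chromosome 2 and carries purine nucleobases, had 8.29, 13.04 and 10.3 CPM with TNF-alpha and 26.8, 23.9 and 22.2 CPM with vehicle, and fell by 1.20 ± 0.16 (adjusted p = 3.75e-04). Slc43a2, or LAT4, had 76.6, 90.9 and 83.7 CPM with TNF-alpha and 74.7, 106 and 89.9 CPM with vehicle, and was not past the test (-0.11 ± 0.13, adjusted p = 0.495).

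Carriers of amino acids and peptides outside these families were counted in the same way. Of 23 tested, 4 rose and 6 fell, leaving 13 that did not pass (median 0.00). Beside this stood 27.6% risen and 27.9% fallen over all tested genes, and the difference was not tested. Sfxn3, a mitochondrial serine carrier, and Slc25a29, a mitochondrial carrier of basic amino acids, fell by 0.33 ± 0.06 and 0.63 ± 0.11 in log2 units (adjusted p = 0.00112 and 0.00156). Slc15a4, a lysosomal carrier of histidine and small peptides, rose by 0.32 ± 0.06 (adjusted p = 0.00144).

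By level per kilobase of exon, the order of the members differed between the groups at its head. With TNF-alpha, Slc7a2 came first at 144 ± 17.1 CPM per kilobase, then Slc3a2 at 96.4 ± 4.74, Slc38a2 at 56.2 ± 1.49, Slc6a6 at 55.5 ± 2.46 and Slc7a5 at 33.3 ± 4.64. With vehicle, Slc6a6 came first at 90.2 ± 8.12 CPM per kilobase, then Slc3a2 at 67.7 ± 1.65, Slc38a2 at 60.4 ± 3.31, Slc7a5 at 31.4 ± 3.08, Slc38a10 at 27.7 ± 1.5 and Slc7a2 at 25.5 ± 6.77. Slc38a2 and Slc6a6 with TNF-alpha lay within their spread of each other, as did Slc7a5, Slc38a10 and Slc7a2 with vehicle, so the order of these is not settled. Slc7a2 made up 26.3% ± 1.90 of the summed CPM per kilobase of all members with TNF-alpha and 5.75% ± 1.43 with vehicle, and Slc6a6 made up 10.2% ± 0.89 with TNF-alpha and 20.4% ± 1.26 with vehicle. Exon lengths are those of all annotated transcripts joined, so the level of a gene that uses only short forms is set too low.

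**Figure D5:**
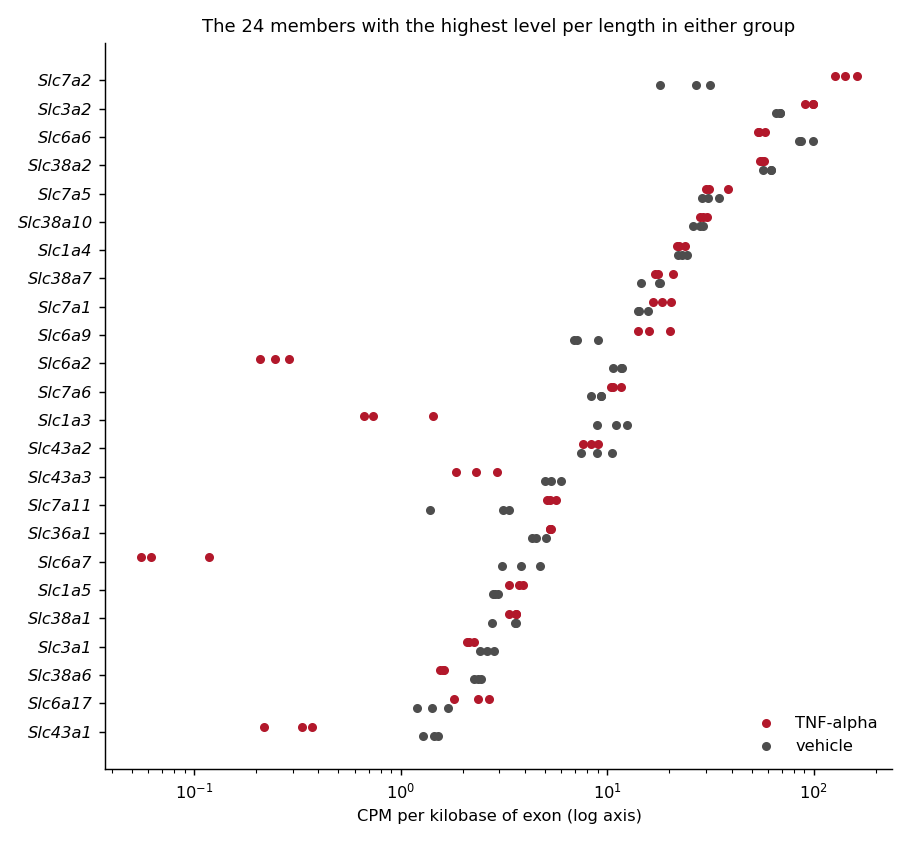
CPM per kilobase of exon (log axis) of the 24 members with the highest level per length in either group, in each TNF-alpha library (red, upper points) and vehicle library (grey, lower points). Slc7a2 lies to the right of its vehicle points by several-fold and leads with TNF-alpha at 144, Slc6a6 leads with vehicle at 90.2, and Slc6a2, Slc1a3 and Slc6a7 lie far to the left of their vehicle points.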

How the data were processed

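RNA from 6 engineered muscle constructs was sequenced as bulk libraries. The authors deposited 1 table of estimated counts per gene: per the submitters' processing notes, TopHat2 2.1.1, Bowtie2 2.3.5.1, featureCounts of Subread 2.0.0 and DESeq2 were used with the builds mm10 and GRCm38, while options of the counting step are not given in the sources used. Between 20.1% and 21.0% of the values per library carried decimals, so whole counts were not at hand as planned and the values were rounded before testing. Genes were filtered (filterByExpr), scaled (TMM) and tested with edgeR 4.0.16 (robust quasi-likelihood, R 4.3.3), TNF-alpha over vehicle with 3 libraries each, with Benjamini-Hochberg adjustment over 15792 genes. The procedure was tested on simulated data with 200 changed genes. Far more genes, 8769, were called in the data used here, so the simulated setting was unlike them. Positions and exon lengths came from GENCODE on GRCm38, and promoter windows from RefSeq on GRCm38.p6. An exact permutation test of 3 against 3 libraries cannot go below 0.1, so none was used. By the rule for named genes, values in each library are given for members called at 2-fold or more with at least 1 CPM in a group, the 10 members of highest mean CPM, and 8 members set by name (Slc3a2, Slc7a5, Slc7a11, Slc1a5, Slc7a1, Slc7a2, Slc38a2 and Slc38a9). From each list that is not of a cell type, the 2 genes of smallest p in the direction of most calls and 1 in the other direction are named. Members and lists were chosen with earlier results of these data known. Alternatives were other scalings, filters, DESeq2 1.42.0, limma-voom (limma 3.58.1), a replicate block and leaving out each library. The values of 1 untested member are not reported here.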

Additional observations from a re-analysis of the deposited data

How the results depend on the processing

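No tested member that was called changed sign under any of 14 alternatives, and 21 of the 25 called members kept their call under each alternative that gave a value; the 9 tested members under 1 CPM in both groups were not tested under the stricter filter. The exceptions were Slc7a8, Slc7a11, Slc36a1 and Slc38a9. Slc3a1, Slc6a15, Slc6a18 and Slc36a4 were not past the test but passed under 1 or more alternatives. Slc7a11 also lost its call with no filter on low counts (adjusted p = 0.0896 by edgeR). The median of all genes lay between -0.03 and 0.00 under the scalings. In the main test the median log2 fold change was -0.0013 for SLC1, 0.32 for SLC6, 0.085 for SLC7 and 0.19 for SLC36. With the stricter filter it was 0.17 for SLC1, -0.35 for SLC6, 0.28 for SLC7 and -0.081 for SLC36. Fewer members were tested there, and the sign of the SLC1, SLC6 and SLC36 medians turned. Shares of light-chain counts not divided by length differed by -9.78 percentage points for Slc7a5 (-5.34 per length) by 11.7 for Slc7a11 (4.74 per length) and by -1.08 for Slc7a6 (1.17 per length, -0.28 to 2.59 with a library left out), TNF-alpha minus vehicle. With each library left out in turn, 11 to 14 members rose and 11 to 13 fell, and 3674 to 4146 of all genes rose and 3747 to 4317 fell. The family medians ran from -0.06 to 0.05 for SLC1, 0.09 to 0.15 for SLC3, 0.21 to 0.38 for SLC6, 0.00487 to 0.20 for SLC7, 0.15 to 0.26 for SLC36, 0.00562 to 0.13 for SLC38 and -1.38 to -1.05 for SLC43. The labels do not say whether a replicate number pairs libraries of the 2 groups. Correlations of same-numbered deviations were 0.04, -0.05 and -0.11, which cannot settle this with 3 libraries in each group. With the number as a replicate block, 13 members rose and 11 fell, Slc7a11 (adjusted p = 0.0748) and Slc36a1 (adjusted p = 0.0582) lost their call, and Slc6a15 passed (adjusted p = 0.0434). Depth limits members with few counts per library, such as Slc1a6.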
